A study of Mus musculus with 44 samples.

Results

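The genes of the proteasome were examined in 2 tissues, liver and skeletal muscle, with and without Slc16a13. They were chosen by symbol, as all genes named Psma, Psmb, Psmc, Psmd, Psme, Psmf or Psmg with a number and without a pseudogene suffix, and 48 of the 38202 genes in the deposited table met this rule. By role, the list held 8 alpha subunits and 8 constitutive beta subunits of the 20S core, the 3 immuno-subunits Psmb8, Psmb9 and Psmb10, 9 subunits of the base and 8 of the lid of the 19S cap, 4 chaperones of 20S assembly, 3 chaperones of 19S assembly, 4 activators and the inhibitor Psmf1. All 48 had a row in the table, and 47 passed the filter on low counts in liver and in the fit over both tissues. In muscle 46 passed. The missing genes were Psmb11, the beta subunit of the thymus, in every fit, and Psma8, an alpha subunit known from testis, in muscle. Psmb11 had 0 reads in all libraries but a WT muscle library with 1 read.

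RNA of both tissues was sequenced for 11 WT and 11 KO mice, giving 44 libraries. The KO mice were homozygous for a constitutive CRISPR/Cas9 deletion that takes out the promoter and the first exons of Slc16a13, a lactate transporter gene, and WT mice were littermates on the C57BL/6N background. Every mouse was male, 20 weeks old, killed after fasting overnight and fed high-fat diet (HFD) for 15 weeks, so that no group on another diet was available here. The labels give the same animal numbers in both tissues, and mice are named below by these numbers.

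Library totals lay between 20150712 and 35218243 reads. Slc16a13 had between 99 and 302 reads in WT livers and between 0 and 8 in KO livers. WT muscles had 4 to 22 reads of it and those labelled KO had 11 to 40, against the label, so they are called the muscle libraries labelled KO throughout. Hepatocyte markers summed to between 39680 and 58520 RPKM (reads scaled by gene length and by library size) in livers and to at most 4.603 RPKM in muscles, and skeletal muscle markers to at least 69990 RPKM in muscles and at most 30.29 RPKM in livers. In 4 KO livers (mice 532, 583, 602 and 611), long genes had fewer reads than in the rest. Their slopes of log2 CPM (counts scaled to a common library total) on log2 gene length were -0.53, -0.25, -0.42 and -0.08, against slopes from 0.04 to 0.10 in WT livers. The median proteasome gene was shorter (1241 bases) than the median gene tested in liver (2412 bases). Liver results of proteasome genes by genotype are therefore given with and without these 4 livers.

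The proteasome degrades proteins tagged with ubiquitin. Its 20S core is a stack of rings of alpha and beta subunits, of which Psmb5, Psmb6 and Psmb7 carry the active sites, and the 19S cap recognises, unfolds and feeds in the substrates. Interferon exchanges the active subunits for Psmb8 (in place of Psmb5), Psmb9 (in place of Psmb6) and Psmb10 (in place of Psmb7), and this immunoproteasome, often with the PA28 activator formed by Psme1 and Psme2, makes peptides for presentation by MHC class I. In muscle the proteasome is known as the main route by which myofibrillar proteins are lost in atrophy. Psme4 encodes PA200, an activator that caps the core in place of the 19S complex.

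The promoters of 4 genes are shown because Psmb8, Psmb9 and the PA28 gene Psme1 were among the genes highest in liver relative to muscle, and Psme4 was the gene lowest. RefSeq promoters were matched for 40 of the 48 genes (43 promoters). Each sequence runs from 250 bases before the gene's start through 30 bases from it, in the direction of transcription, on GRCm38.p6, and capitals mark a match to a searched motif on either strand. The positions are chr17:34197945-34198224 on the plus strand for Psmb8, chr17:34187301-34187580 on the minus strand for Psmb9, chr14:55578244-55578523 on the plus strand for Psme1 and chr11:30771525-30771804 on the plus strand for Psme4.
Psmb8: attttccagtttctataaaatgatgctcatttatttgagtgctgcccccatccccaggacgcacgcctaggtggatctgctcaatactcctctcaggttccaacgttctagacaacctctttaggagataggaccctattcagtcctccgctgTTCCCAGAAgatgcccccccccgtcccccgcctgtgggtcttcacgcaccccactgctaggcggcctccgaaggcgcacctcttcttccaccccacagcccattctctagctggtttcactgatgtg
Psmb9: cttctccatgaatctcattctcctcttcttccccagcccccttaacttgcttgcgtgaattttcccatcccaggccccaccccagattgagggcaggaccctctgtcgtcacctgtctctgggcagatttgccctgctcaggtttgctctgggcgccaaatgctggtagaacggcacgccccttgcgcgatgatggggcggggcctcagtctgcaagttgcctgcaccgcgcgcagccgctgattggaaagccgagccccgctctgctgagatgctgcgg
Psme1: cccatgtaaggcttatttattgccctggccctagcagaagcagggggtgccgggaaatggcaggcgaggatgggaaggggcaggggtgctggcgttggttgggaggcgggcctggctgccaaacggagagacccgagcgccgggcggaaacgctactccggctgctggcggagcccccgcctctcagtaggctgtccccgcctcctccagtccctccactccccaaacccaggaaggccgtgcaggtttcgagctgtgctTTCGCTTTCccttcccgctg
Psme4: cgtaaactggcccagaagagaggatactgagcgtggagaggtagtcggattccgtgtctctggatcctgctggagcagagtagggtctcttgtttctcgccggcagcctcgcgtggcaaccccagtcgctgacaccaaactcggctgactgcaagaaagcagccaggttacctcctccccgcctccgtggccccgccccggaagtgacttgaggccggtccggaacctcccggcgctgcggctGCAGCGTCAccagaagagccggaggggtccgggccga

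The motifs searched were the core of the antioxidant response element, TGACNNNGC, the core of the interferon-stimulated response element, GAAANNGAA, and the gamma-activated site, TTCNNNGAA. The gamma-activated site was found in Psmb8, 97 bases before the start, the interferon-stimulated core in Psme1, 10 bases after it, and the antioxidant core in Psme4, 7 bases before it. Psmb9 held none of the 3 in this window, and no match overlapped another in the sequences shown. Over the 43 promoters of proteasome genes, searched from 250 bases before to 50 bases after the start, 6 held the antioxidant core, 7 (16.3%) the interferon-stimulated core and 3 (6.98%) the gamma-activated site, against 12.4%, 8.56% and 8.3% of all 32851 promoters. These matches describe the letters in the window only.

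In WT liver most core and cap genes were expressed within a narrow span. Leaving out Psma8 and Psmb11, the mean level per gene had a median of 54.23 RPKM over 46 genes, from 5.313 RPKM for Psmg4, a 20S assembly chaperone, to 140.7 RPKM for the core subunit Psmb4. The alpha subunits ran from Psma5 (34.61 ± 1.98 RPKM, SD, n = 11) to Psma6 (112.1 ± 4.55 RPKM), and the constitutive beta subunits from Psmb5 (50.76 ± 4.52 RPKM) to Psmb4 (140.7 ± 9.48 RPKM). Among 19S genes, the base ran from the scaffold Psmd1 (43.34 ± 1.69 RPKM) to the ATPase Psmc3 (115.7 ± 5.41 RPKM), and the lid from the deubiquitinase Psmd14 (39.03 ± 2.18 RPKM) to Psmd11 (88.19 ± 6.17 RPKM). Assembly chaperones were lower: among the 4 of the 20S core the highest was Psmg1 at 15.86 ± 0.984 RPKM, and among the 3 of the 19S cap Psmd5 at 23.59 ± 1.61 RPKM and Psmd10, known as gankyrin, at 6.925 ± 0.699 RPKM were the highest and lowest. Among activators Psme2 was highest (92.33 ± 11.2 RPKM) and Psme4 lowest (25.02 ± 1.21 RPKM). The inhibitor Psmf1 stood at 21.1 ± 1.44 RPKM.

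Levels differed little between WT mice. The median coefficient of variation of CPM was 5.21% over 46 proteasome genes in WT liver, against 12.2% over all 13005 genes tested there, and 7.08% against 11.3% in WT muscle. In WT liver it ran from 2.05% for Psmb1 to 15.4% for Psmg4, whose reads were few (48 to 105 per library). The immuno-subunits varied more than the core around them, with 8.96% for Psmb8 and 10.8% for Psmb10 in WT liver. In KO liver, where the 4 livers named above enter, the median was 26.5% over proteasome genes and 24.1% over all genes, and 123% over the 3 immuno-subunits.

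The tissue comparison asked how the composition of the complex differs between liver and muscle. In WT mice 16 of 47 proteasome genes were higher in liver and 19 were higher in muscle, and 12 did not pass (edgeR quasi-likelihood test over all 44 libraries, Benjamini-Hochberg adjustment over 14739 genes, threshold 0.05). Over all genes tested 44% were higher in liver and 44.1% in muscle, so the counts as such were no higher than the background in either direction. The spread in this fit was estimated over all 44 libraries, so KO livers enter the SE and p of the WT comparison. With the 22 WT libraries alone 17 of 46 proteasome genes were higher in liver and 22 in muscle, against 6321 and 6332 of 13907 genes. The roles differed: the 3 immuno-subunits, the PA28 genes, most assembly chaperones and the inhibitor were higher in liver, and most 19S genes and Psme4 were higher in muscle. Most ordinary core genes did not pass in the fit of all 44 libraries. With gene length removed the counts were 13 and 31, or 27.7% and 66% of the proteasome genes against 45% and 44.9% of all genes, and the median over proteasome genes was -0.28 in place of -0.06. The share higher in muscle was then above that of all genes, and it took in 6 alpha and 5 constitutive beta subunits and all 9 base and 8 lid genes. Liver and muscle are mixtures of cells, and in such bulk RNA fewer cells of a type and less RNA per cell cannot be told apart.

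**Figure D1:**
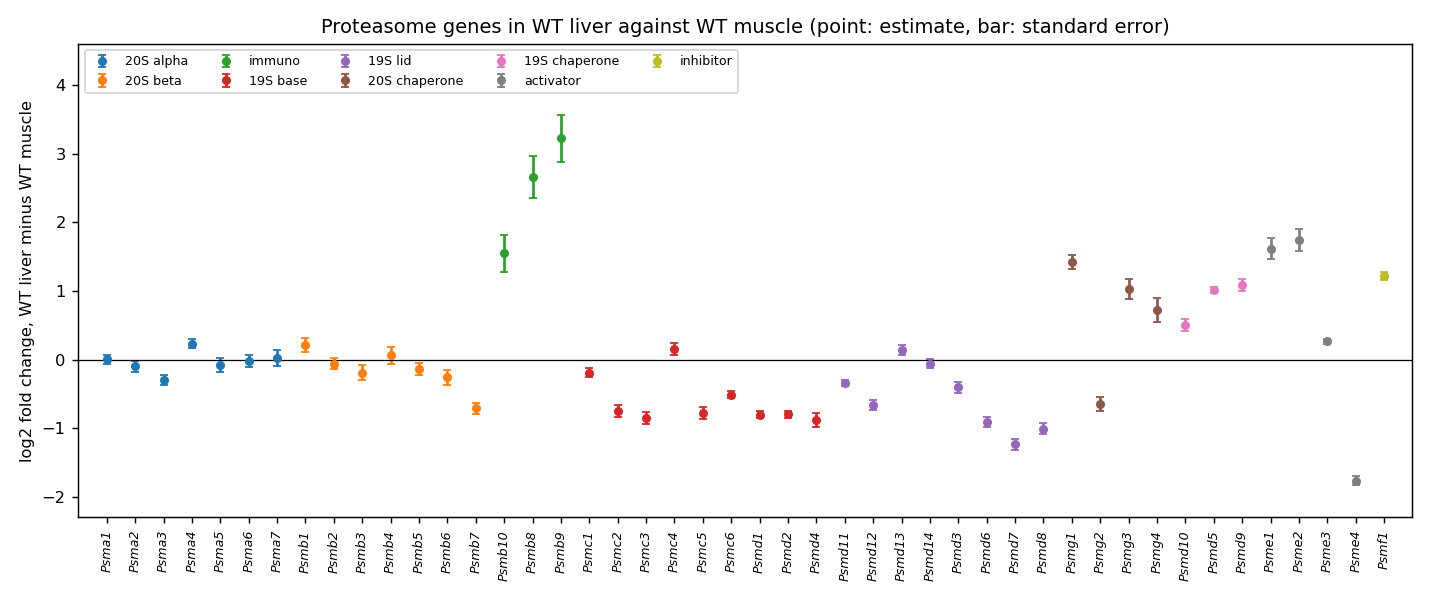
Log2 fold change (y axis, WT liver minus WT muscle, edgeR) of each proteasome gene tested except Psma8, ordered and coloured by role, with bars of 1 standard error. Psmb9 (3.22) and Psmb8 (2.67) lie highest, the 19S genes lie mostly below 0, and Psme4 is lowest at -1.76.

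Among alpha subunits, 2 were higher in liver, 1 was higher in muscle and 5 did not pass, against 44% and 44.1% of all genes called. Psma6 was at 112.1 ± 4.55 RPKM in WT liver and 118.5 ± 7.33 RPKM in WT muscle, a log2 fold change of -0.03 (SE 0.09, edgeR adjusted p = 0.78, but -0.20 and adjusted p = 2.5e-05 with gene length removed), and Psma3 was higher in muscle by a log2 value of 0.30 (-0.30 for liver minus muscle). Of the 2 genes higher in liver, Psma4 had a log2 fold change of 0.23 (-0.03 and not called with gene length removed), and Psma8 rested on few reads, with 6 to 46 per library in WT liver and 0 to 3 in WT muscle, 9 of 11 muscle libraries being at 0, so no fold is given for it. The constitutive beta subunits had 1 higher in liver (Psmb1, log2 fold change 0.21, and -0.01 and not called with gene length removed), 2 higher in muscle (Psmb6 and Psmb7) and 4 that did not pass.

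The 19S genes leaned to muscle, where 44.1% of all genes were called higher. Of 9 base genes 8 were higher in muscle and 1 did not pass, with a median log2 fold change of -0.78, and of 8 lid genes 6 were higher in muscle and 2 did not pass, with a median of -0.53, against 0.00 over all genes. Psmd7 encodes a lid subunit that pairs with the deubiquitinase Psmd14. It was at 40.36 to 52.6 RPKM in WT livers (mean 47.19) and at 106.5 to 127.5 RPKM in WT muscles (mean 114.3). Its log2 fold change was -1.24 (SE 0.08, edgeR adjusted p = 4.5e-19). Psmd2, the large scaffold of the base, was at 67.87 to 79.64 RPKM in WT livers and 119.5 to 146.9 RPKM in WT muscles, and had a log2 fold change of -0.80 (SE 0.05, edgeR adjusted p = 1.9e-19). Psmd1 (-0.80), Psmd8 (-1.01), Psmd4, the ubiquitin receptor of the cap (-0.88), and the ATPase Psmc3 (-0.85) were of a similar size. Psmd14, in contrast, was at 39.03 ± 2.18 RPKM in liver and 41.69 ± 4.51 RPKM in muscle and did not pass (edgeR adjusted p = 0.36), though with gene length removed its log2 fold change was -0.35 (adjusted p = 9.4e-12).

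Activators split. Psme4 was at 23.36 to 26.75 RPKM in WT livers and 79.71 to 94.84 RPKM in WT muscles, 3.40-fold higher in muscle (log2 fold change -1.76, SE 0.07, edgeR adjusted p = 3.8e-27). With a length of 6382 bases it is a long gene. The PA28 genes went the other way. Psme1 was at 79.94 to 104.8 RPKM in WT livers and 20.89 to 31.77 RPKM in WT muscles, 3.07-fold higher in liver (log2 fold change 1.62, SE 0.16, edgeR adjusted p = 5.1e-13). Psme2 was at 71.96 to 112.8 RPKM in WT livers and 21.2 to 32.01 RPKM in WT muscles, 3.35-fold higher in liver (log2 fold change 1.74, SE 0.17, edgeR adjusted p = 2.7e-13). No WT liver overlapped a WT muscle for these 3 genes. How many of all genes lack such overlap is not given here. With 44% and 44.1% of all genes called in either direction, this separation need not be particular to them. Psme2 has a near-identical copy in the table, Psme2b, with 15 to 265 reads per library, and reads of the pair could be split in counting, so its level is uncertain. Psme3, the nuclear PA28 gamma, was slightly higher in liver (log2 fold change 0.26), but slightly higher in muscle with gene length removed (-0.10, edgeR adjusted p = 0.031).

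Genes that build or restrain the complex were mostly higher in liver. Among 20S assembly chaperones 3 were higher in liver and 1, Psmg2, in muscle. All 3 of the 19S cap (Psmd5, Psmd9 and Psmd10) were higher in liver. Of all genes, 44% were called higher in liver and 44.1% in muscle. Psmg1, which with Psmg2 forms a heterodimer on which the alpha ring is built, was at 14.47 to 17.43 RPKM in WT livers and 5.613 to 7.013 RPKM in WT muscles (log2 fold change 1.42, SE 0.10, edgeR adjusted p = 1.8e-17), while Psmg2 had a log2 fold change of -0.65. Psmd5 was at 21.61 to 26.51 RPKM in livers and 10.16 to 12.66 RPKM in muscles (log2 fold change 1.01, SE 0.05, edgeR adjusted p = 1.3e-24). Psmf1, which encodes the inhibitor PI31, was at 19.14 to 24.35 RPKM in livers and 8.037 to 9.759 RPKM in muscles (log2 fold change 1.22, SE 0.06, edgeR adjusted p = 3.3e-24).

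After Psma8, Psmb9 and Psmb8 showed the largest differences toward liver, and Psmb10 lay just below Psme1 and Psme2. Psmb9 had a lowest, median and highest level of 11.32, 16.86 and 19.6 RPKM in WT liver, and lay between 0.976 and 2.45 RPKM in WT muscle, a 9.34-fold difference (log2 fold change 3.22, SE 0.34, edgeR adjusted p = 7.6e-12). Psmb8 lay at 15.06, 17.69 and 21.2 RPKM in WT liver and between 2.189 and 3.844 RPKM in WT muscle, a 6.35-fold difference (log2 fold change 2.67, SE 0.30, edgeR adjusted p = 6.1e-11). Psmb10 lay at 10.17, 12.44 and 15.09 RPKM in WT liver and between 3.66 and 5.403 RPKM in WT muscle, a 2.92-fold difference (log2 fold change 1.55, SE 0.27, edgeR adjusted p = 1.3e-06). For each of the 3 genes the lowest WT liver stood above the highest WT muscle, and how often this holds over all genes is not given. Their constitutive counterparts lay in the other direction: Psmb5 had a log2 fold change of -0.14 (edgeR adjusted p = 0.14, but 0.00045 in the 22 WT libraries alone, 4.1e-09 with gene length removed and 0.032 with library size alone), Psmb6 of -0.26 (adjusted p = 0.017) and Psmb7 of -0.71 (adjusted p = 1.1e-10).

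**Figure D2:**
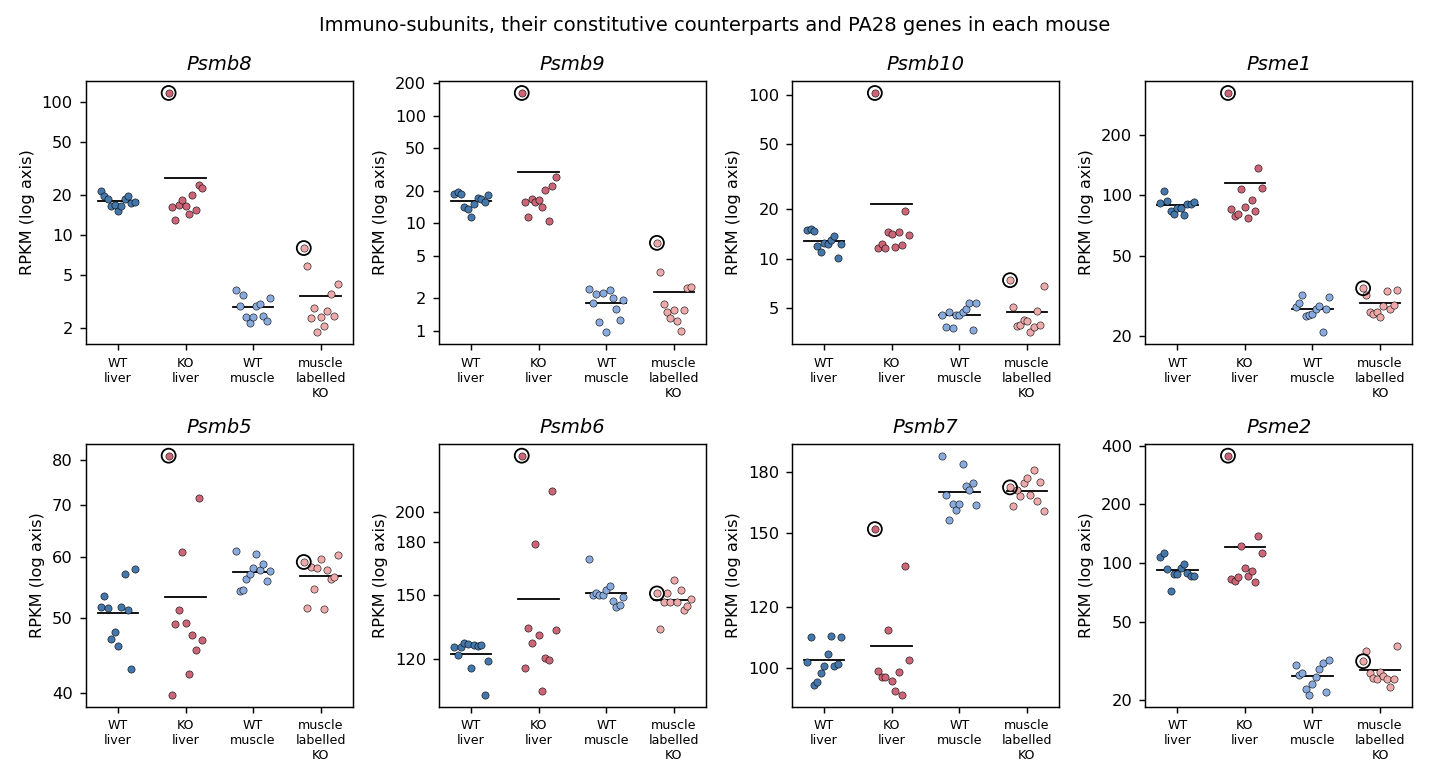
RPKM (log axis) of 8 genes in each of 11 mice per group, with a horizontal line at the group mean and a ring around KO mouse 532. WT livers lie above WT muscles without overlap for Psmb8, Psmb9, Psmb10, Psme1 and Psme2, and the ringed mouse is the highest KO liver in every panel.

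Markers of immune cells moved the same way, in a comparison where 44% of all genes were called higher in liver. All 10 genes of the leukocyte list and all 10 of the macrophage list were higher in WT liver than in WT muscle, and so were 23 of 24 genes of the interferon and antigen presentation list, Gbp2 being the exception (log2 fold change 0.73, edgeR adjusted p = 0.054). The summed leukocyte level was 95.67 to 144.6 RPKM in WT livers and 11.64 to 36.43 RPKM in WT muscles, the macrophage level 272.6 to 362.9 and 16.8 to 55.96 RPKM, and Clec4f, the marker of Kupffer cells, was at 0 in every muscle. All 10 leukocyte genes had a median above 1 RPKM in WT liver and 8 did in WT muscle. The part of these cells in the immuno-subunit difference was not tested.

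The balance of immuno-subunit to constitutive subunit was taken as a ratio of RPKM in each library. Psmb8 over Psmb5 lay between 0.306 and 0.41 in WT livers and between 0.0384 and 0.0646 in WT muscles, Psmb9 over Psmb6 between 0.0974 and 0.161 and between 0.0064 and 0.0156, and Psmb10 over Psmb7 between 0.1 and 0.157 and between 0.021 and 0.0332. Each was below 1, so the constitutive gene had the higher level in every WT library, and the tissues did not overlap. The geometric means differed between the tissues 7.0-fold, 10.7-fold and 4.63-fold, in differences of 2.81, 3.42 and 2.21 on the log2 scale with a pseudocount of 0.1 (two-sided permutation test with 100000 resamples, n = 11 mice in each tissue, p = 4e-05 for each and adjusted p = 4e-05 over 6 comparisons). In KO mice the differences were 2.80, 3.34 and 2.49, with the same adjusted p.

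**Figure D3:**
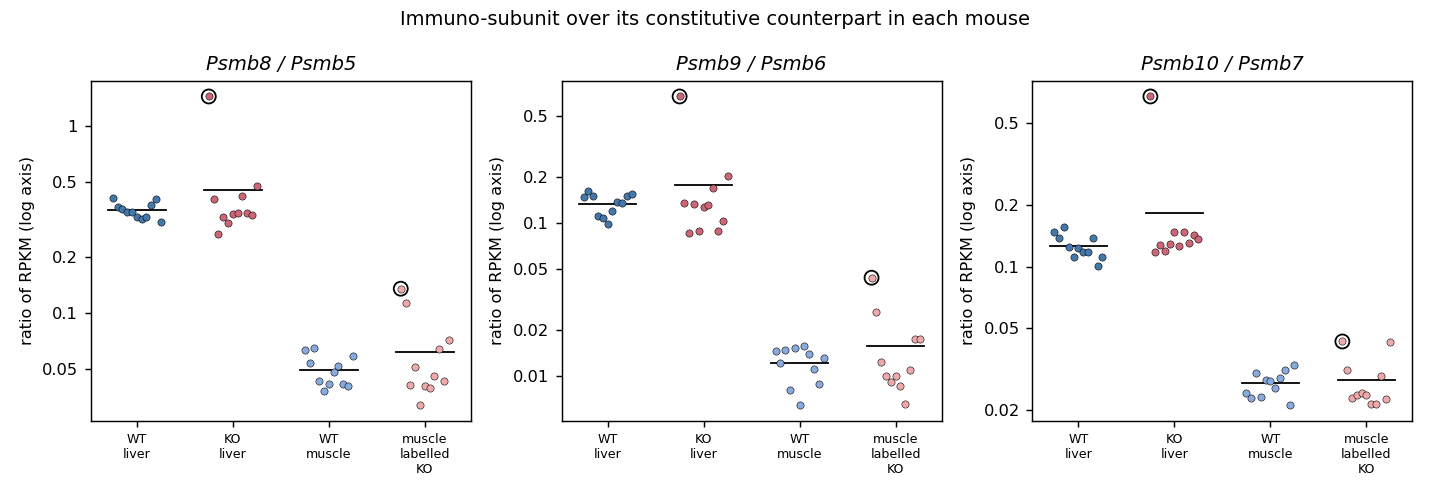
Ratio of RPKM (log axis) of each immuno-subunit to the constitutive subunit it replaces, in each of 11 mice per group, with a line at the mean and a ring around KO mouse 532. Livers lie above muscles in all 3 panels, and mouse 532 reaches 1.44 for Psmb8 over Psmb5 in liver.

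Between KO liver and the muscle libraries labelled KO, 26 proteasome genes were higher in liver and 15 in muscle, against 44.6% and 44.1% of all genes. The 4 KO livers with low slopes set much of this split. Without these 4 mice 19 were higher in liver and 21 in muscle (40.4% and 44.7%, against 43.9% and 44.4% of all genes), and with gene length removed 15 and 28 (31.9% and 59.6%, against 44.8% and 44.7%). Psme4 (log2 fold change -1.87), Psmd1 (-0.80) and Psmd2 (-0.70) were the genes with the smallest p toward muscle, and Psmd5 (1.01), Psmf1 (1.14) and Psmg1 (1.67) toward liver, as in WT mice except that Psmd1 took the place of Psmd7. Psmb9 had a log2 fold change of 3.55, Psmb8 of 3.17 and Psmb10 of 2.36. Since WT and KO mice were fitted together and the muscle label is in doubt, the comparisons are given side by side.

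Other genes of the pathway were taken from a list of 32, of which 31 were matched. In WT mice 11 were higher in liver, 19 in muscle and 1 did not pass, against 44% and 44.1% of all genes. The muscle ubiquitin ligases Trim63 (MuRF1) and Fbxo32 (atrogin-1) had log2 fold changes of -13.96 and -9.15. Nfe2l1, the transcription factor that raises proteasome genes when the proteasome is impaired, had -2.04, and Nfe2l2, the antioxidant regulator, 0.68. Pomp, a chaperone of the maturing 20S core, was higher in liver (0.75), and Ecpas, an adaptor that binds the 26S proteasome, was higher in muscle (-2.04). All of these passed the test. Between genotypes 0 of the list passed in liver or in muscle by edgeR, DESeq2 or limma-voom. An unadjusted edgeR p under 0.05 was found for 7 of 30 genes in liver and 1 of 31 in muscle. Of all genes 9.78% were higher and 3.1% lower at that p in liver, and 3.76% and 4.88% in muscle. The count of the list without the 4 livers of low slope is not given here.

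In liver, KO was compared with WT to find what the loss of Slc16a13 goes along with. No proteasome gene passed: 0 of 47 were called in either direction by edgeR, DESeq2 or limma-voom, and of all 13005 genes 0.0154% were called higher and 0.00769% lower in KO. At an unadjusted p under 0.05, 28 of 47 were higher in KO and 0 lower, against 9.78% and 3.1% of all genes, and the median log2 fold change over the 47 was 0.21 against -0.01 over all genes. Without the 4 livers of low slope, 0 of 47 had an unadjusted p under 0.05 and the median was -0.01. Of all genes 1.36% were then higher and 1.6% lower, so 0 of 47 was near the background. With gene length removed 10 were higher and 1 lower (21.3% and 2.13%, against 4.39% and 3.51% of all genes), and the median was 0.07. Leaving out mouse 532 alone left 14 higher (29.8%, against 4.99% of all genes). The higher levels thus rested on these 4 livers, which also had fewer reads on long genes, and the part of that in the levels was not tested beyond these fits.

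**Figure D4:**
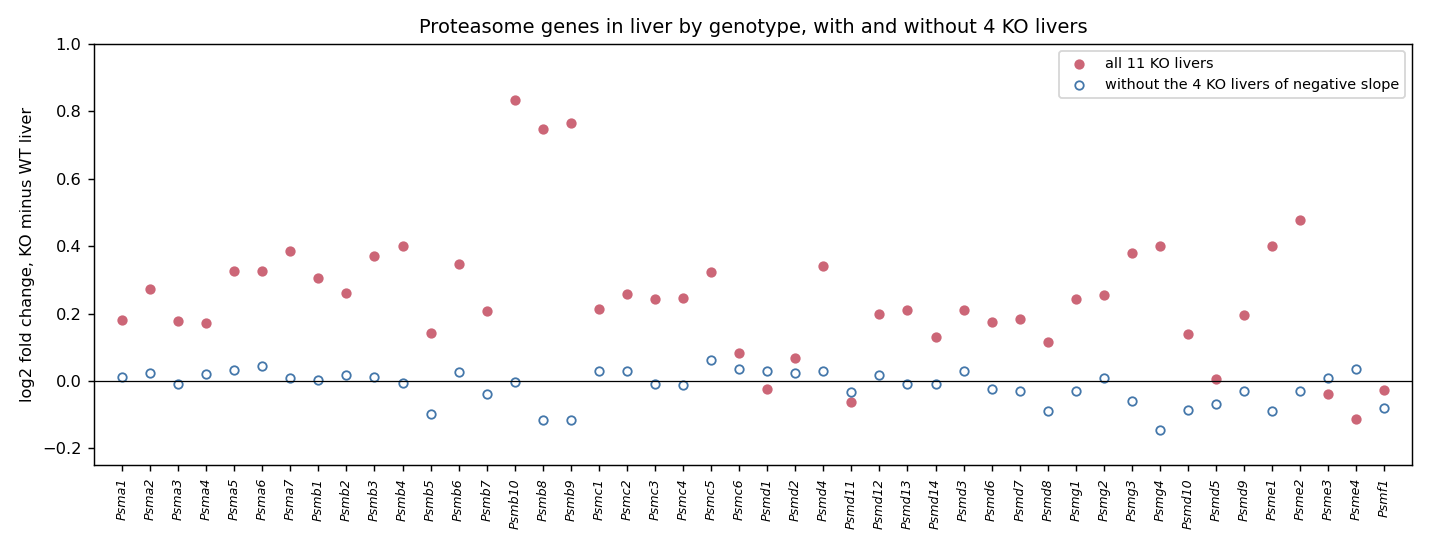
Log2 fold change (y axis, KO minus WT liver, edgeR) of each proteasome gene except Psma8, in the fit with all 11 KO livers (filled) and without the 4 KO livers of negative slope (open). Filled points lie mostly above 0, up to 0.83 for Psmb10, and open points lie near 0.

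The 3 genes with the smallest p toward KO were Psma6 (log2 fold change 0.33, SE 0.11), Psmc5 (0.32, SE 0.12) and Psma5 (0.33, SE 0.12), each with an edgeR adjusted p of 0.38. Psma6 lay between 104.7 and 119.3 RPKM in WT livers and between 107.3 and 189.5 RPKM in KO livers, so the groups overlapped. Toward WT they were Psme4 (-0.11), Psmd11 (-0.06) and Psma8 (-0.43, 6 to 28 reads in KO livers), with edgeR adjusted p from 0.46 to 0.48. The widest differences were those of the immuno-subunits. Psmb10 had a log2 fold change of 0.83 (SE 0.34), Psmb9 of 0.77 (SE 0.35) and Psmb8 of 0.75 (SE 0.33), all with an edgeR adjusted p of 0.38. Psme2 had 0.48 and Psme1 0.40. Without the 4 livers these became -0.0016, -0.12, -0.12, -0.03 and -0.09. Psmb6, which lies on chromosome 11 as Slc16a13 does, with 14 protein-coding genes between them in RefSeq's order, had 0.35 (SE 0.13, edgeR adjusted p = 0.38).

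KO mouse 532 set the immuno-subunit values. It was singled out after seeing the data, as the KO mouse with the highest Psmb8 in muscle and in liver. Its high Psmb8 is therefore a description and no independent support. In its liver Psmb8 was at 116.6 RPKM, while the 10 other KO livers lay between 12.95 and 23.87 RPKM and WT livers between 15.06 and 21.2 RPKM. Psmb9 was at 162.6 RPKM, against 10.5 to 26.85 RPKM in the other KO livers and at most 19.6 RPKM in WT. Psmb10 was at 102.8 RPKM, against 11.63 to 19.45 RPKM and at most 15.09 RPKM. No other liver came near these levels. They were 6.59, 9.65 and 8.26 times the WT medians. Over 13004 genes, 77, 34 and 49 had a fold at least as large as Psmb8, Psmb9 and Psmb10 in this library, the gene itself included. These ranks were taken without removing gene length, in a library with a slope of -0.53, and ranks with it removed are not given. With gene length removed the folds ranged from 4.79 to 5.6.

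The ordinary proteasome genes of that liver were raised far less. Over 43 genes other than the immuno-subunits, Psma8 and Psmb11 the median was 1.55 times the WT median, from 0.541 for Psme4 to 4.01 for Psme2, and with gene length removed the median was 1.11. Psme1 (321.6 RPKM) and Psme2 (354.8 RPKM), the PA28 genes, stood at 3.58 and 4.01 times the WT medians. In the livers of mice 583, 602 and 611 the same 43 genes had medians of 1.25, 1.36 and 1.11 times the WT medians, and 1.13, 1.14 and 1.02 with gene length removed. Their immuno-subunits had medians of 1.04, 1.35 and 1.27 times the WT medians, and 0.925, 1.23 and 1.19 with gene length removed. All 3 stood above every WT liver in mouse 602 and 2 of 3 in mouse 611, at no more than 1.59 times the WT median, against 6.59 times or more in mouse 532. Of the 43 other proteasome genes, 34 stood above every WT liver in mouse 602 and 22 in mouse 611, against 20.2% and 10% of all genes. In mouse 532 it was 36 of the 43, against 30.8% of all genes. In mouse 583 it was 33 of the 43 and 0 of the 3 immuno-subunits, against 15.1% of all genes. With gene length removed the immuno-subunit folds of mouse 602 ran from 0.828 to 1.28.

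The ratio of immuno-subunit to constitutive subunit in that liver was 1.44 for Psmb8 over Psmb5, the only library where an immuno-subunit exceeded its counterpart, 0.67 for Psmb9 over Psmb6 and 0.678 for Psmb10 over Psmb7. The highest other KO livers reached 0.479, 0.202 and 0.147. Tested by genotype, the ratios did not pass: the KO minus WT differences in liver were 0.18, 0.11 and 0.29 on the log2 scale (two-sided permutation test, 11 mice per group, p = 0.539, 0.793 and 0.132, adjusted p = 0.808, 0.907 and 0.791 over 6 comparisons in both tissues). Without mouse 532 they were -0.01, -0.12 and 0.08.

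The muscle of mouse 532 held the highest immuno-subunit levels of its tissue as well. Psmb8 was at 7.956 RPKM (WT muscles 2.189 to 3.844), Psmb9 at 6.577 RPKM (0.976 to 2.45) and Psmb10 at 7.401 RPKM (3.66 to 5.403), which were 2.73, 3.41 and 1.63 times the WT medians. The slope of this muscle library on gene length was 0.00, within the WT range from -0.07 to 0.03. In the same muscle 0 of 9 base, 0 of 8 lid, 0 of 7 alpha and 0 of 7 beta genes stood above every WT muscle, against 8.19% of all genes. Among the other roles 1 of 3 chaperones of the 19S cap and 1 of 4 activators (Psme1) did. Both libraries that bear the number 532 thus had high immuno-subunits, though the label alone ties them to the same animal. In this muscle the alpha and constitutive beta subunits had median folds of 1.04 and 1.02 over the WT medians.

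Interferon and antigen presentation genes were high in the same mouse. In liver 21 of 24 genes of that list stood above every WT liver, against 30.8% of all genes in this library, and in muscle 22 of 24 against 8.19%. Igtp, an interferon-induced GTPase, was at 383.8 RPKM in liver (WT 16.71 to 28.63) and 19.34 RPKM in muscle (WT 5.238 to 6.893). Tap1, the peptide transporter subunit whose gene neighbours Psmb9, was at 46.08 RPKM in liver (WT 12.33 to 18.96) and 6.025 RPKM in muscle (WT 1.195 to 2.086). Nlrc5, the activator of MHC class I genes, was at 12.51 and 2.776 RPKM against at most 5.588 and 0.883 RPKM in WT.

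Immune cell markers differed between the liver and the muscle labelled 532. In liver 8 of 10 leukocyte and 8 of 10 macrophage markers stood above every WT liver, against 30.8% of all genes in this library. Cd52 was at 90.19 RPKM (WT 6.854 to 15.0) and Clec4f at 173.8 RPKM (WT 60.92 to 73.97). The liver of mouse 611 had 3 of 10 leukocyte and 8 of 10 macrophage markers above every WT liver, against 10% of all genes. In the muscle of mouse 532, 0 of 10 leukocyte and 0 of 9 macrophage markers detected in WT stood above every WT muscle. All 3 immuno-subunits did, against 8.19% of all genes. The part of immune cells in the liver values was not tested.

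**Figure D5:**
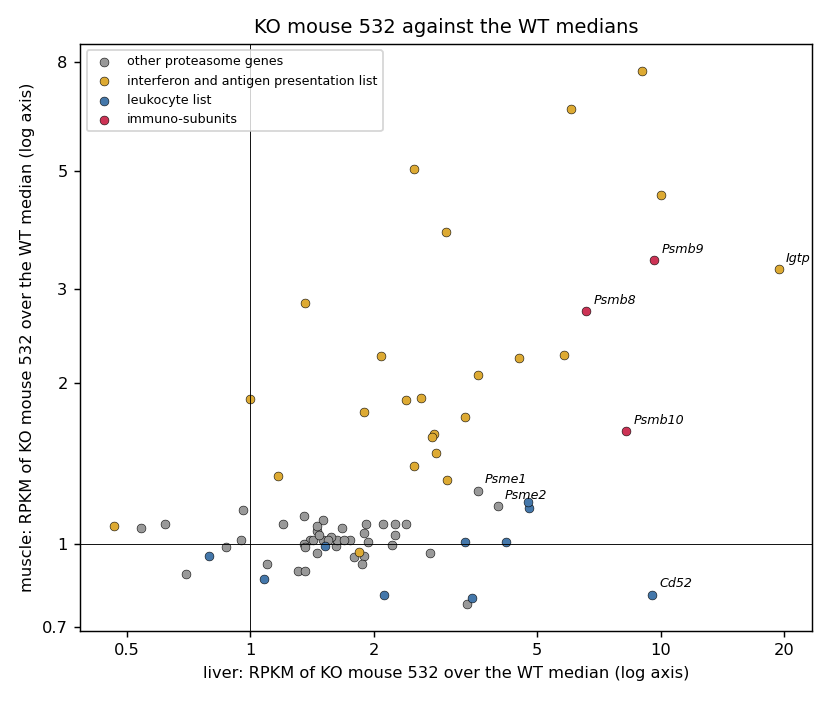
RPKM of KO mouse 532 divided by the WT median, in liver (x axis) and muscle (y axis), both on log axes, for proteasome genes, the interferon and antigen presentation list and the leukocyte list. The immuno-subunits lie up and to the right, at 6.59 to 9.65 in liver and 1.63 to 3.41 in muscle, while other proteasome and leukocyte genes lie near 1 in muscle.

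In muscle 0 of 46 proteasome genes passed between the libraries labelled KO and WT by edgeR, DESeq2 or limma-voom, and of all 13266 genes 0.00754% were called higher and 0% lower. The median log2 fold change was -0.02 against 0.01 over all genes. At an unadjusted p under 0.05, 0 of 46 were higher and 3 lower, against 3.76% and 4.88% of all genes. The 3 were Psmg4 (log2 fold change -0.30, SE 0.11), Psmb4 (-0.11, SE 0.04) and Psmd3 (-0.11, SE 0.04), each with an edgeR adjusted p of 0.51. Psmb4 lay between 128.8 and 153.3 RPKM in WT muscles and between 112.3 and 144.2 RPKM in those labelled KO, so they overlapped. Toward KO the smallest p were those of Psmb9 (0.46, SE 0.24, edgeR adjusted p = 0.61), Psmb8 (0.26, SE 0.20, adjusted p = 0.73) and Psmf1 (0.06, SE 0.06, adjusted p = 0.79), where mouse 532 enters for the immuno-subunits. The ratios differed by 0.18, 0.18 and 0.01 on the log2 scale for Psmb8, Psmb9 and Psmb10 (two-sided permutation test, adjusted p = 0.808, 0.808 and 0.907).

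After mouse 532, Psmb8 was highest in the muscles of KO mice 561 (5.792 RPKM) and 611 (4.295 RPKM). All 3 immuno-subunits stood above every WT muscle in mouse 611 and 2 of 3 in mouse 561. Psmb10 was at 6.864 RPKM in the muscle of mouse 611, near the 7.401 RPKM of mouse 532. Psmb10 over Psmb7 was 0.0429 and 0.0431 in these muscles. In the muscles of mice 561 and 611 the markers of other cells were high too. All 10 leukocyte markers, all 4 adipocyte markers and all 4 endothelial markers stood above every WT muscle in both mice. So did 5 and 7 of 9 macrophage markers, and 19 and 17 of the 24 interferon and antigen presentation genes. The share of all genes above every WT muscle is not given for these mice, so the counts have no background beside them. The part of these cells in the values of Psmb8 was not tested.

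The interaction asked whether the difference by genotype was unlike in liver and muscle. By edgeR 0 of 47 genes passed, by DESeq2 and limma-voom 0 as well, and over all 14739 genes 0% and 0.00678% were called in either direction. At an unadjusted p under 0.05, 25 leaned to a higher KO level in liver and 1 the other way, against 10% and 6.14% of all genes. Without the mice of the 4 low-slope livers 0 did, near the 1.44% and 2.13% of all genes. With gene length removed 12 and 1 did (25.5% and 2.13%, against 5.87% and 5.2% of all genes). Psmd3 (0.33, SE 0.11), Psmb4 (0.52, SE 0.17) and Psmd4 (0.42, SE 0.14) had the smallest p in the direction of liver, and Psma8 (few reads), Psme4 (-0.10) and Psmf1 (-0.08) in the other, with an edgeR adjusted p of 0.28 for the first 4 and 0.56 and 0.59 for Psme4 and Psmf1.

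Across mice, Psmb8 was set against 6 other measures within each group, in 24 relations on log2 CPM (permutation tests with 100000 resamples, two-sided, Benjamini-Hochberg adjustment over the 24). KO livers were limited to the 7 without a low slope. In WT liver Psmb8 followed the mean of the interferon and antigen presentation list without Tap1 (Pearson r = 0.875, permutation p = 0.00061, adjusted p = 0.0037; Spearman rho = 0.809, p = 0.0039, adjusted p = 0.023; 11 mice), and r was 0.729 without the 2 mice farthest from the median of Psmb8. In WT muscle it did so too (r = 0.791, permutation p = 0.004, adjusted p = 0.016; rho = 0.755, p = 0.01, adjusted p = 0.041; r = 0.698 without 2 mice). In the 7 KO livers r was 0.318 (permutation p = 0.46, adjusted p = 0.58; rho = 0.393, p = 0.39).

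The relation of Psmb8 to Psmb9 was r = 0.655 in WT liver and 0.665 in WT muscle (permutation adjusted p = 0.063 for both; rho = 0.573 and 0.655, adjusted p = 0.13 and 0.09), which did not pass. To the constitutive Psmb5 it was -0.084 and -0.336 (adjusted p = 0.84 and 0.44; rho = 0.055 and -0.282, adjusted p = 0.88 and 0.48). The leukocyte list gave r = 0.698 in WT liver (permutation adjusted p = 0.062; rho = 0.627, adjusted p = 0.1) and 0.391 in WT muscle (adjusted p = 0.37; rho = 0.464, adjusted p = 0.26). Among the muscles labelled KO, Psmb8 followed Tap1 (r = 0.955, permutation p = 1e-05, the smallest the resamples can give, adjusted p = 0.00024; rho = 0.927, adjusted p = 0.0031), Psmb9 (r = 0.895, adjusted p = 0.0037; rho = 0.827, adjusted p = 0.02) and Psmb10 (r = 0.823, adjusted p = 0.016; rho = 0.7, adjusted p = 0.069). Without the 2 mice farthest from the median these were 0.868, 0.608 and 0.723, so the relation to Psmb9 rested in part on those mice. There Psmb8 also followed the interferon and antigen presentation list (r = 0.940, permutation adjusted p = 0.00096; rho = 0.836, adjusted p = 0.02; r = 0.771 without 2 mice). For the leukocyte list rho passed (0.773, permutation adjusted p = 0.033) and r did not (0.587, adjusted p = 0.13; 0.870 without 2 mice). In WT liver and WT muscle Tap1 gave r = 0.585 and 0.220 (permutation adjusted p = 0.13 and 0.62). Psmb10 gave r = 0.492 and -0.052 in these groups (permutation adjusted p = 0.25 and 0.88). In the 7 KO livers Tap1 and Psmb10 gave 0.621 and 0.404 (permutation adjusted p = 0.25 and 0.51), and none of these passed. Libraries of a group share their tissue and processing, which these relations do not separate from the mice.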

How the data were processed

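RNA of liver and skeletal muscle from 11 WT and 11 KO mice was sequenced as single-end, poly(A)-selected, stranded libraries. The authors deposited raw read counts per gene, not normalized, and RPKM values per gene, scaled by length and library size. The labels name limma as a tool, and the aligner, counting program and genome build are not given in the sources used here. Genes were named from a table of identifiers (36340 of 38202). A length for each gene was derived from the counts and RPKM together.

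Counts were tested in R 4.3.3 with edgeR 4.0.16 (filterByExpr, TMM, quasi-likelihood, Benjamini-Hochberg, threshold 0.05). Within-tissue fits used the 22 libraries of a tissue, and tissue and interaction fits all 44. Alternatives were DESeq2 1.42.0, limma-voom 3.58.1, library size alone, other filters, gene length removed (loess, span 0.3), mice left out and a replicate block. On simulated counts with 200 genes changed by a log2 value of 1, 95.5% were recovered in liver (12932 genes), 96% in muscle (13187 genes) and 97% between tissues (13821 genes). Of the unchanged genes 8, 10 and 10 were called. The simulation had no slope on gene length and no outlying mouse, so it does not give the power for the smaller liver differences by genotype. Ratios and relations were tested by permutation in scipy. Total counts of 20150712 to 35218243 reads set the precision, and counting error is largest for Psma8, Psmb11, Psmg4 and, in muscle, Psmb9 (30 to 140 reads) and Psmb8 (68 to 203 reads). No pair of libraries held identical counts (0 pairs).

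The members and gene lists were chosen with earlier results of these data known. Named were the immuno-subunits and their counterparts, Psme1 and Psme2, the highest and lowest member of each role in WT liver, and the 3 members of smallest p in each direction of each comparison. Liver and muscle libraries were paired into mice by the number in their labels. Over genes, deviations from the group mean correlated within such pairs by 0.0613 in WT and 0.0793 in KO on average. Between different mice the means were -0.00615 and -0.00729. Within pairs r ran from -0.0199 to 0.152 in WT and from 0.0126 to 0.175 in KO. Correlations this weak do not establish the pairing. The few Slc16a13 reads of KO livers therefore do not settle the label of the muscle libraries. Each mouse is an animal of its own, and p-values within a tissue measure the spread between mice. The main tissue and interaction fits took all 44 libraries as independent, though the labels give each mouse a library of both tissues. Their p-values rest on the spread between libraries within groups. The permutation tests of ratios by tissue were unpaired too, and the replicate block is the paired alternative. Protein sequences were not used here.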

Additional observations from a re-analysis of the deposited data

How the results depend on the processing

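The counts of 0 proteasome genes by genotype in liver, by genotype in muscle and for the interaction were 0 under every alternative run. In the tissue comparison of WT mice, removing gene length gave 31 genes higher in muscle in place of 19, and in that of KO mice it gave 15 higher in liver in place of 26 and 28 higher in muscle in place of 15. The other alternatives kept the counts within 1.5 times. With the replicate block, the paired fits gave 16 and 19 genes in WT mice, 24 and 16 in KO mice and 0 for the interaction, and the ratios by tissue, tested by exact sign flips within animals, all passed (p = 0.000977, the smallest that exact test can give with 11 mice), as did the main tests. The block called the same 35 genes in WT mice, and in KO mice it shared 39 of 41 calls, losing Psma2 and Psmb3 and adding Psma3. Library size alone moved the median log2 fold change over all genes in KO mice from 0.01 to -0.12 (20 and 17 proteasome genes).

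Values that did not pass in the reported fits changed sign as follows, and 4 of them passed in the new direction (for KO mice by tissue, with adjusted p below). Without the 4 livers of low slope, the KO minus WT log2 ratio was -0.0326 for Psmb8/Psmb5 and -0.123 for Psmb9/Psmb6, and the liver log2 fold changes were -0.0016 (Psmb10), -0.0992 (Psmb5), -0.0385 (Psmb7), -0.1154 (Psmb8), -0.1159 (Psmb9), -0.0875 (Psme1), -0.0289 (Psme2) and 0.0362 (Psme4). With gene length removed in liver, Psmb5 had -0.0794 and Psme4 0.0784. In muscle Psme1 had 0.0273 with gene length removed and 0.0060 with library size alone. For KO mice by tissue, Psmb5 had -0.3315 (gene length removed, edgeR adjusted p = 1.7e-10), -0.0909 (library size alone), -0.1885 (without the 4 mice, adjusted p = 0.0014) and -0.0243 (without mouse 532, chosen after seeing the data), and Psmb6 had -0.2573 (gene length removed, adjusted p = 1.2e-06) and -0.1958 (without the 4 mice, adjusted p = 0.001). For the interaction, gene length removed gave -0.0385 (Psmb5), -0.0327 (Psmb9) and 0.0966 (Psme4), and leaving out the 4 mice gave -0.0511 (Psmb5), -0.0236 (Psmb7), -0.2270 (Psmb8), -0.2329 (Psmb9), -0.0553 (Psme1), -0.0161 (Psme2) and 0.0241 (Psme4). The cause was not tested.

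With each mouse left out in turn, the liver ratio differences ranged from -0.0091 to 0.2349 (Psmb8/Psmb5), -0.1176 to 0.1779 (Psmb9/Psmb6) and 0.0795 to 0.3307 (Psmb10/Psmb7), and the muscle ones from 0.0539 to 0.2553, 0.0189 to 0.2813 and -0.0517 to 0.0486, each lowest without mouse 532. The muscle log2 fold changes that crossed 0 ranged from -0.0516 to 0.0614 (Psmb10), -0.0396 to 0.0013 (Psme1), -0.0030 to 0.0492 (Psme2) and -0.0044 to 0.0847 (Psmf1).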
